A study of Mus musculus with 12 samples.

Results

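A family of 43 short RNA sequences whose 5′ end is like that of proline tRNAs was followed in mouse sperm, among 2971 tRNA fragment sequences tabulated in all. The family was chosen by level and by sequence likeness. Sequences were taken from the highest to the lowest mean of the 12 normalised values, and each joined the family of the nearest sequence already placed if 2 or fewer edits separated them. The family founded by a 31-nt sequence with about these members and total was then picked, and it was known by then that its total is lower in Atf7 heterozygotes. Values by genotype are therefore a description of these libraries, and where counts of members called by genotype are printed, nothing is read from them.

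Small RNA was sequenced from histone replacement-completed sperm, in which protamines have taken the place of histones. The sperm came from the caudal epididymis and vas deferens of male mice and were sonicated mildly to part heads from tails before precipitation through Percoll. The mice were wild type or ATF7+/-, with 1 intact copy of the gene for a stress-responsive transcription factor, and were fed either a control or a low protein diet between weeks 3 and 12 of life. The 4 groups had 3 libraries each: wild type on control diet, wild type on low protein diet, heterozygotes on control diet and heterozygotes on low protein diet. The labels do not say that the 3 libraries of a group came from separate mice, so p-values measure the spread between these libraries, which may be technical. The tabulated sequences are tRNA fragments and hold no marker gene by which the purity of the sperm could be checked. RNA was taken in bulk, so fewer sperm that carry a fragment and less of it in each sperm cannot be told apart.

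A tRNA carries an amino acid to the ribosome and reads the codon with the 3 bases of its anticodon loop. Cutting in or beside this loop releases a 5′ fragment from the first base of the tRNA up to the anticodon, and such fragments are abundant in mature mouse sperm, which gains many of them in the epididymis. Proline tRNAs read codons through the anticodons AGG, CGG and TGG. Their 5′ parts are much alike, so a 5′ fragment may not tell which gene made it.

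The members form a ladder of 3′ ends on 1 common 5′ sequence. The 7 sequences that start at the first base and carry no difference are shown because they hold 76.0% of the family's reads. Capitals mark base 33, counted from 1 at the 5′ end of the founding sequence, which is the 31-nt rung.
27 nt: ggctcgttggtctaggggtatgattct
28 nt: ggctcgttggtctaggggtatgattctc
29 nt: ggctcgttggtctaggggtatgattctcg
30 nt: ggctcgttggtctaggggtatgattctcgc
31 nt: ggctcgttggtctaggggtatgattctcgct
32 nt: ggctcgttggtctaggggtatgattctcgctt
33 nt: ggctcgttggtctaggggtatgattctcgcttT

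Over the 12 libraries the means of these rungs, in reads scaled by the authors to a library total of 1000000 (RPM), were 138 at 27 nt, 153 at 28 nt, 244 at 29 nt, 122 at 30 nt, 572 at 31 nt, 373 at 32 nt and 409 at 33 nt. The 3 longest rungs held 51.1% of the family. The ladder ends at base 33, and no member is longer.

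Base 33 is where the anticodon begins in the annotated proline gene that could be read. RefSeq lists 16 nuclear proline tRNA genes on GRCm38.p6, of which 6 are named for the anticodon AGG, 3 for CGG and 7 for TGG. One of them, n-TPtgg2 at chr11:67291139-67291210 on the plus strand, lies inside exon 12 of a retained-intron transcript of Myh8, a myosin heavy chain gene on the same strand, in GENCODE vM21. Its sequence is shown because it places the family on a tRNA. Capitals mark the anticodon TGG at bases 33 to 35.
n-TPtgg2: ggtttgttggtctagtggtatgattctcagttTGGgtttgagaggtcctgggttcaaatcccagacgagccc
Against this gene the 33-nt rung has 5 differences, written with the rung's base first: C3T, C5T, G16T, G29A and C30G. Of the 402 nuclear tRNA genes listed, 10 lie inside annotated transcripts, and the other 9 were 11 to 16 edits from the rung. The genes that hold the family's exact bases were not identified here, so proline is a name by likeness and by the place of the anticodon.

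At base 33 the fragments carried 3 different bases, shown because this base would be the first of the anticodon. The capital marks base 33.
33 nt, T: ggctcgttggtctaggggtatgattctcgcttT
33 nt, C: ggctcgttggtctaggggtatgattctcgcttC
33 nt, G: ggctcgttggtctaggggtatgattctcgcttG
The mean level was 409 RPM for T, 82.1 RPM for C and 8.98 RPM for G, and no member had A there. T and C are the first bases of the TGG and CGG anticodons. The first A of AGG is known to be changed to inosine in mature tRNAs, which sequencing reads as G. But base 33 is the last base of every member that reaches it. C also replaced T as the last base before the anticodon, at base 31 (71.1 against 572 RPM) and base 32 (38.8 against 373 RPM). Whether C and G at base 33 come from the anticodon was not tested. Counting all 8 members that reach base 33, T was found at 466 RPM, C at 85.9 RPM and G at 8.98 RPM.

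Beyond the ladder, members differed by a missing start or by a single base. Of the 43 members, 30 start at base 1 and hold 94.5% of the reads, 9 start at base 2 and hold 4.73%, and 4 start at base 3 and hold 0.802%. None starts before base 1. No member has more than 1 base difference from the 33-nt rung: 16 have none and 27 have 1. The difference is the last base of the fragment in 16 of these 27 and lies inside it in 11. A last base that differs can be a base added to, or read wrongly at, the 3′ end, and which of these it was cannot be told apart here.

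The commonest differences inside the fragment were G9C, in 6 members with 76.0 RPM and 2.87% of the family, and C30G, which is at the last base in 1 of its 4 members, with 46.4 RPM and 1.75%. The most abundant member of each class is shown, with the difference in capitals, beside the most abundant members that start at base 2 and at base 3. The T31C and T31A members, also shown, differ at the last base of the fragment and not inside it.
G9C, 32 nt: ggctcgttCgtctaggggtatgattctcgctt
G9C, 29 nt: ggctcgttCgtctaggggtatgattctcg
C30G, 31 nt: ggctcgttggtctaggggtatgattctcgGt
T31C, 31 nt: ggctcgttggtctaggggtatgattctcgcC
T31A, 31 nt: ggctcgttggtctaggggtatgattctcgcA
base 2 to 31: gctcgttggtctaggggtatgattctcgct
base 3 to 31: ctcgttggtctaggggtatgattctcgct
Their mean levels were 26.3 RPM for the 32-nt G9C member, 10.2 RPM for the 29-nt G9C member (shown because it passed a test below), 14.8 RPM for C30G, 71.1 RPM for T31C, 43.3 RPM for T31A, 38.4 RPM for the member from base 2 and 9.68 RPM for the member from base 3. The C30G base is also the base of n-TPtgg2 at position 30. G9C is not found in that gene.

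The family stood clear of its neighbours in sequence. Of the members other than the founder, 38 joined at 0 edits and 4 at 1 edit, and none joined at 2. The most abundant members at 1 edit were the 32-nt G9C member and a 27-nt member with T27C at 18.7 RPM. The nearest sequences outside were of 15 nt, at 3 edits with 15.1 RPM and at 4 edits with 4.79 RPM. The family total averaged 2649 RPM, 0.270% of the tabulated level and the seventh of 19 families. Single members ranged from 2.27 to 572 RPM around a median of 12.2 RPM, close to the median of 13.4 RPM for all tabulated sequences. All 43 passed the filter of a mean of 1 RPM.

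Between 4159 and 15152 reads of a library belonged to the family, out of 2198744 to 6870039 in the totals the authors used. The counting error of a family total was 0.812 to 1.55%, which covers counting only, because no molecular identifiers show which reads are copies of 1 molecule. A member at 0 reads in a library could still be at up to 0.437 to 1.36 RPM there by the limit of 3 counts, and 2 members were at 0 somewhere. Replicate libraries differed far more than counting gives: over the 43 members the chi-square per degree of freedom between pairs of replicates was 2.59 to 39.3. None of the 12 pairs of replicates within a group agreed within counting noise.

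Wild-type libraries carried the family at 2681, 3156 and 3572 RPM on control diet and at 3118, 3090 and 3473 RPM on low protein diet. Heterozygous libraries carried it at 2714, 2744 and 1892 RPM on control diet and at 1791, 1743 and 1813 RPM on low protein diet. The 3 heterozygous low-protein libraries lay together and below every wild-type library. On control diet the genotypes overlapped, since 2 of the heterozygous libraries were above the lowest wild-type one. The third, replicate 3, was near the low-protein heterozygotes and was the shallowest of all 12 libraries.

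The group means were 3136 ± 446 RPM for wild type on control diet, 3227 ± 214 RPM for wild type on low protein diet, 2450 ± 484 RPM for heterozygotes on control diet and 1782 ± 35.8 RPM for heterozygotes on low protein diet (SD, n = 3 each). As log2 fold changes from edgeR, heterozygote against wild type was -0.86 (SE 0.19) on low protein diet, -0.36 (SE 0.19) on control diet and -0.61 (SE 0.13) over both diets. The order from highest to lowest was wild type on low protein, wild type on control, heterozygote on control and heterozygote on low protein, and neighbours in this order overlapped except the last pair. Without replicates 1 and 2 of both control-diet groups, which held the most fragments with a missing start, the control-diet value was -0.92. Only replicate 3 of each control-diet group was left, here and wherever these replicates are left out below, so that value compares 1 library with 1. The control-diet value was -0.20 without heterozygous control-diet replicate 3 and -0.25 without wild-type control-diet replicate 3.

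The genotypes also differed in depth and in what else was in the libraries. All 3 low-protein heterozygous libraries were deeper, at 4828916, 6870039 and 6751209 reads, than the wild-type ones on that diet at 2278880, 2874170 and 2302584. The second largest family, at 458823 ± 39632 RPM in low-protein heterozygotes against 391535 ± 14640 RPM in wild type (SD, n = 3 each), was higher by the means, and the largest family was lower, at 400501 ± 25202 against 461652 ± 5468 RPM. Scaled in the same way to the reads outside the 2 largest families, the proline-like family stood at 23063, 22192 and 20922 in wild type and at 11693, 14053 and 12510 in heterozygotes on low protein diet. The groups on that diet did not overlap on that scale either, and the log2 fold change was -0.79. On control diet the family stood at 13755, 18301 and 23202 on that scale in wild type. In heterozygotes on control diet it stood at 13956, 16868 and 14526. The highest low-protein heterozygous library, at 14053, was thus above the lowest library of each control-diet group. The part of depth in the difference was not tested.

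Each of the 3 main rungs was lowest in the low-protein heterozygotes. The 31-nt founder was at 527, 667 and 686 RPM in wild type on control diet and at 624, 595 and 732 RPM on low protein diet. Heterozygotes had 708, 657 and 385 RPM on control diet and at 393, 458 and 436 RPM on low protein diet. All low-protein heterozygous libraries were below all wild-type ones, while the control-diet heterozygotes ran from the second highest library of the 12 to the lowest.

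The 32-nt rung was at 307, 369 and 592 RPM in wild type on control diet and at 538, 529 and 521 RPM on low protein diet. Heterozygous libraries held it at 318, 327 and 282 RPM on control diet and at 222, 232 and 239 RPM on low protein diet. On low protein diet the wild-type libraries were more than 2 times as high as each heterozygous one. On control diet the groups overlapped.

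The 33-nt rung with T was at 353, 525 and 527 RPM in wild type on control diet and at 591, 472 and 633 RPM on low protein diet. The heterozygous values were 372, 425 and 277 RPM on control diet and at 246, 251 and 238 RPM on low protein diet. Again the low-protein heterozygotes were below every wild-type library, and the control-diet groups overlapped.

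Fold changes between genotypes on low protein diet were larger at the longest rungs than at the founder. They were -1.21 (log2, SE 0.24) at 33 nt and -1.20 (SE 0.25) at 32 nt, but -0.60 (SE 0.25) at 31 nt. The shorter rungs had -0.94 at 30 nt, -0.57 at 29 nt, -0.92 at 28 nt and -0.98 at 27 nt, so the size did not follow the length in one direction. The 33-nt member ending in C at base 33 had -1.0 and the one ending in G had -1.16. On control diet the 7 rungs were between -0.69 and -0.10.

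Nearly every member pointed the same way. On low protein diet 42 of 43 members were lower in heterozygotes, with a median log2 fold change of -0.64, against a median of 0.11 over all 2971 sequences. The exception was the 31-nt T31G member, at 0.27 (SE 0.43). On control diet 41 of 43 were lower, with a median of -0.41 against -0.05 over all sequences. On low protein diet 25 members were lower in every heterozygous library than in any wild-type one, against 14.2% of the whole table, and all 25 start at base 1. On control diet 5 members did so, against 2.73% of the table. These members share most of their bases and were chosen with their total known, so nothing is read from the counts.

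No single member was called between genotypes when all 12 libraries shared an estimate of the spread (edgeR quasi-likelihood, Benjamini-Hochberg over all sequences, threshold 0.05). The share of all sequences called was 0.202% on low protein diet, 0% on control diet and 0.101% over both diets. At an unadjusted p under 0.05 there were 20 members on low protein diet, where 17.0% of all sequences were, 10 on control diet, where 4.21% were, and 19 over both diets, where 11.3% were. DESeq2 called 13 members on low protein diet with 2.73% of all sequences, 0 on control diet with 0%, and 12 over both diets with 1.65%. Limma called no member, with 0.0337%, 0% and 0.101% of all sequences. These counts come from the contrast for which the family was named and are no support for it.

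The next question was whether the diet moved the members. Diet did not name the family, but contrasts in heterozygotes use heterozygous libraries of the contrast that did, so they are not independent of the choice. The family total did not pass a test for diet. In wild type the log2 fold change of low protein against control diet was 0.04 (SE 0.19, 95% interval -0.32 to 0.41), with an edgeR adjusted p of 0.868 over 19 families, and the libraries overlapped. In heterozygotes it was -0.46 (SE 0.19, interval -0.83 to -0.09), with an unadjusted p of 0.0234 and an edgeR adjusted p of 0.445. In RPM, all 3 low-protein heterozygous libraries were below the 3 control-diet ones. The exact permutation test of the 3 against 3 totals in RPM gave p = 0.1, the smallest it can give. Without heterozygous control-diet replicate 3 the value was -0.62 with an edgeR adjusted p of 0.0179. Without replicates 1 and 2 of both control-diet groups, which left 1 heterozygous control-diet library, it was -0.09. With reads outside the 2 largest families as library size it was -0.25 with an edgeR adjusted p of 0.428.

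The difference between the diet effects of the genotypes did not pass either. It was -0.50 (log2, SE 0.26, interval -1.02 to 0.02), with an edgeR adjusted p of 0.692, and it uses the same libraries. It was 0.06 without replicates 1 and 2 of both control-diet groups, with 1 control-diet library of each genotype left. Over both genotypes the diet value was -0.21 (SE 0.13), with an edgeR adjusted p of 0.491.

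Among single members, none was called for diet within a genotype. In wild type 2.52% of all sequences were called by edgeR and no member. At an unadjusted p under 0.05 there were 12 members (27.9%) there, near the 21.8% of all sequences, and DESeq2 called 5 of the 43 members and 11.0% of all sequences. In heterozygotes 0.101% of all sequences were called by edgeR and no member. At an unadjusted p under 0.05 there were 15 members (34.9%), against 16.9% of all sequences, and DESeq2 called 1 member, against 1.51% of all sequences. For the interaction edgeR called no member and 0% of all sequences. There 4 members (9.30%) had an unadjusted p under 0.05, near the 9.83% of all sequences, and DESeq2 called no member and 0.101% of all sequences. Limma called no member and 0% of all sequences in each of these.

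In wild type 6 members were lower and 3 higher in every low-protein library, against 11.0% and 8.45% of the table. In heterozygotes these counts were 8 and 1, against 8.25% and 13.0%.

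Taking diet over both genotypes, 8 of 43 members (18.6%) were called, where 11.9% of all sequences were. Calls for a fall were of fragments with a missing start. Of the 13 members that lack base 1 or bases 1 and 2, 7 fell on low protein diet, and all 13 had a negative fold change, with a median log2 value of -1.88. Of the 30 that start at base 1, none fell and 1 (3.33%) rose, with 20 of 30 values negative and a median of -0.13. Of all 2302 sequences that lack no first bases, 56 (2.43%) were called, 44 of them for a rise, so the 1 call is near that share. The share of reads with a missing start, given below, did not pass its test for diet. The count of 8 members called fell to 0 when any 1 of 4 libraries was left out, and the calls of the whole table then fell from 11.9% to 0%. The 4 libraries were replicates 1 and 2 in wild type on low protein diet, and replicates 2 and 3 in heterozygotes on that diet. The count was 1 without control-diet replicate 1 of wild type (3.43% of all sequences) or of heterozygotes (1.88%). It was 2 without heterozygous (5.39%) and 3 without wild-type (7.51%) control-diet replicate 2. It was 15 without wild-type (24.0%) and 18 without heterozygous (26.9%) control-diet replicate 3.

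The most abundant member that fell spans bases 2 to 31. It was at 115, 68.9 and 21.2 RPM in wild type on control diet and at 8.78, 14.3 and 32.6 RPM on low protein diet. Heterozygotes carried 81.9, 68.5 and 8.19 RPM on control diet and at 19.1, 7.42 and 15.4 RPM on low protein diet. Replicates 1 and 2 of both control-diet groups were the 4 highest libraries, and replicate 3 of each lay among the low-protein ones. The log2 fold change over both genotypes was -1.92 (SE 0.53, edgeR adjusted p = 0.0365), and it was 0.27 without those 4 libraries.

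The member spanning bases 3 to 31 had a log2 fold change of -2.62 (SE 0.52, edgeR adjusted p = 0.0199). It was at 49.1, 23.7 and 3.64 RPM in wild type on control diet and at 1.76, 4.18 and 4.34 RPM on low protein diet. In heterozygotes it was at 11.8, 9.06 and 3.64 RPM on control diet and at 1.86, 1.46 and 1.63 RPM on low protein diet. The heterozygous diet groups did not overlap, whereas wild-type control-diet replicate 3 lay inside its low-protein group. The other 5 that fell had log2 values of -1.71 to -3.15. Without replicates 1 and 2 of both control-diet groups no member was called for diet.

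Sequences with a missing start were called elsewhere in the table too. Over all sequences of the table that lack first bases, the median log2 fold change for diet over both genotypes was -1.27, and 44.4% were called. The share of family reads with a missing start was 17.3, 8.48 and 2.31% in wild type on control diet and 1.65, 2.14 and 3.90% on low protein diet. In heterozygotes it was 9.92, 7.99 and 2.0% on control diet and 4.59, 1.68 and 3.09% on low protein diet. Control-diet replicates 1 and 2 were the 4 highest libraries, and the diet groups overlapped in both genotypes. The diet difference over both genotypes was -5.15 percentage points (exact permutation within genotype, two-sided, p = 0.055, adjusted p = 0.277 over 36 comparisons of shares). It was 0.69 points without those 4 libraries, with 1 control-diet library of each genotype left.

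Set against the rest of the table, pooled in the same library, the family had a smaller share of fragments with a missing start. Its share averaged 5.42% and that of all other sequences 8.06%, a difference of -2.64 points that was negative in 12 of 12 libraries (exact sign-flip permutation test, two-sided, p = 0.000488, the smallest it can give). The rest includes the third largest family, whose mean share was the highest of the 8 largest families in each group. In wild type on control diet it was 57.5%. Without it the difference was -0.61 points, negative in 9 of 12 libraries, with an exact sign-flip permutation p of 0.0796. The comparison therefore rests on that family. The second largest family had a lower mean share than this one in each group, and the largest family a higher one. In wild type on control diet the means were 5.25% in the second largest, 9.36% here and 13.0% in the largest.

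The single member that rose with low protein diet was the 29-nt G9C fragment. It was at 5.09, 6.76 and 12.3 RPM in wild type on control diet and at 13.6, 17.7 and 16.1 RPM on low protein diet. In heterozygotes it was at 7.17, 6.42 and 5.91 RPM on control diet and at 12.6, 8.73 and 10.2 RPM on low protein diet. The diet groups did not overlap in either genotype. The log2 fold change over both was 0.83 (SE 0.22, edgeR adjusted p = 0.0341), 0.98 in wild type and 0.68 in heterozygotes. With each library left out in turn, the adjusted p from edgeR ran from 0.00249 to 0.0897, and the call held only without control-diet replicate 3 of either genotype. Without replicates 1 and 2 of both control-diet groups, 1 control-diet library of each genotype was left and the value was 0.59.

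The other 5 G9C members had log2 fold changes of 0.25 to 0.59 over both genotypes and none of them was called. Together the 6 G9C members made up 1.77, 2.02 and 2.90% of family reads in wild type on control diet and 3.21, 4.59 and 3.43% on low protein diet. In heterozygotes they made up 2.43, 1.96 and 2.09% on control diet and 3.40, 3.11 and 3.42% on low protein diet. Each low-protein library was above each control-diet library of either genotype. This share was chosen after its values were seen. The diet difference was 1.33 percentage points (exact permutation within genotype, two-sided, p = 0.005, the smallest it can give). The adjusted p was 0.18 over the 36 comparisons added in this way, so it did not pass. But 1 share at the smallest p could not pass by itself among 36 comparisons, so the adjusted value leaves the question undecided.

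As a level rather than a share, the G9C members stood at 71.6 ± 29.0 RPM and 120 ± 21.0 RPM in wild type on control and low protein diet, and at 53.1 ± 13.2 RPM and 59.0 ± 4.22 RPM in heterozygotes (SD, n = 3 each). The diet groups overlapped on this scale in both genotypes. In heterozygotes the log2 ratio of the mean levels, low protein over control diet, was 0.15 for the G9C members and -0.46 for the whole family. In wild type these ratios were 0.75 and 0.04.

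The makeup by 3′ end is described by genotype without a test, since genotype named the family, and it was chosen after its values were seen. Among reads that start at base 1, those that end at base 32 or 33 made up 36.2, 38.5 and 41.0% in wild type on control diet and 47.0, 41.5 and 42.8% on low protein diet. In heterozygotes they made up 34.6, 36.2 and 36.5% on control diet and 34.8, 36.9 and 35.8% on low protein diet. On low protein diet every wild-type library was above every heterozygous one, and on control diet 1 wild-type library fell inside the heterozygous range. The heterozygous groups were alike on the 2 diets, at 35.8 ± 1.03% and 35.8 ± 1.06%, while wild type was at 38.6 ± 2.39% and 43.7 ± 2.90%.

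In wild type the diet groups did not overlap in this share, which differed by 5.16 percentage points. The exact permutation test of 3 against 3 cannot go below p = 0.1 and gave that value, with an adjusted p of 0.296. In heterozygotes the difference was 0.04 points with an exact permutation p of 1. Over both genotypes it was 2.60 points (exact permutation p = 0.09, adjusted p = 0.296).

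The founder's own share was 20.0 ± 1.01% and 20.1 ± 0.922% of family reads in wild type on control and low protein diet, and 23.5 ± 2.90% and 24.1 ± 2.16% in heterozygotes (SD, n = 3 each). For diet the difference over both genotypes was 0.38 points (exact permutation p = 0.695, adjusted p = 0.813). Reads of 32 nt or more, with starts of any kind, were 3.42 points higher on low protein diet over both genotypes (exact permutation p = 0.055, adjusted p = 0.277).

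The base at position 33 was compared between diets as a share chosen after its values were seen. It is the last base of every fragment that reaches it. A base of the anticodon and a base added or read wrongly there cannot be told apart. Among reads that reach this base, T made up 87.5, 86.4 and 83.8% in heterozygotes on control diet and 83.0, 80.2 and 79.1% on low protein diet, and the groups did not overlap. In wild type T made up 86.7, 84.0 and 79.3% on control diet and 79.9, 82.5 and 84.2% on low protein diet, and the groups overlapped. The diet difference was -5.15 percentage points in heterozygotes (exact permutation p = 0.1, the smallest possible, adjusted p = 0.296) and -1.12 points in wild type (exact permutation p = 0.8). As levels, T stood at 416 ± 105 RPM and 276 ± 6.89 RPM in heterozygotes on control and low protein diet, and C at 59.3 ± 8.09 RPM and 59.9 ± 7.09 RPM (SD, n = 3 each).

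Of all shares compared for diet, none passed the 0.05 threshold after adjustment. Within a genotype the exact permutation test cannot go below p = 0.1, so no share could pass there. Over both genotypes, 1 share at the smallest value of the exact permutation test could not pass by itself among 36 comparisons. Before adjustment, that test gave a p under 0.05 for the G9C share only. Nothing is read from the lack of a pass. The counting interval of a share in 1 library (Wilson, 95%) was at most 0.722 points to either side for the missing start, 0.437 points for G9C, 1.48 points for ends at base 32 or 33 and 2.59 points for T at base 33.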

How the data were processed

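The authors deposited, for each of 12 libraries, raw read counts per unique sequence and normalised values (RPM) scaled to a library total of 1000000. Both come per the file headers, and the reads were placed on mm10 per the submitters' processing notes. The aligner, the counter and the treatment of mismatches were not given in the sources used here. The last bears on members with a base difference. Library totals were recovered from the ratio of deposited counts to RPM.

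Members were found with edlib 1.3.9.post1 at 2 or fewer edits. Counts of all 2971 sequences were fitted with edgeR 4.0.16 (R 4.3.3) quasi-likelihood on 4 group means, with library sizes set to the authors' totals, a minimum mean of 1 RPM that removed none, and a threshold of 0.05 after Benjamini-Hochberg adjustment. The common biological coefficient of variation was 0.326. Summed counts of 19 families were fitted in the same way. Shares of family reads were compared by exact permutation tests, two-sided (Python 3.11.15). The fits were tested on simulated data. DESeq2 1.42.0 and limma 3.58.1, on log2(RPM + 1), were alternatives, beside other library sizes, filters, family rules and left-out libraries. tRNA genes were taken from RefSeq (GRCm38.p6) and GENCODE vM21.

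Same-numbered libraries on control diet deviated together (r 0.547, 0.143 and 0.522), in the data and not by the labels, and no other contrast had every r over 0.1. The members, lists and tests were chosen with earlier results of these data known. Named are the founder and the next 9 members by level, the members called, the most abundant of each class, and the sequences nearest the edit limit. Others named were chosen after their values were seen.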

Additional observations from a re-analysis of the deposited data

How the results depend on the processing

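Genotype counts describe the contrast that named the family. On low protein diet TMM factors called 2 members (0.370% of all sequences), DESeq2 13 (2.73%) and the 6 libraries alone 15 (12.5%), and over both diets DESeq2 called 12 (1.65%). For diet DESeq2 called 5 members in wild type (11.0% of all) and 1 in heterozygotes (1.51%), and reads outside the 2 largest families as library size gave 2 in wild type (4.21%). For diet over both genotypes limma called 0 (0%) and a minimum mean of 10 RPM left 2 (182 of 1817 sequences). Without replicates 1 and 2 of both control-diet groups, a choice made after seeing the data, 15 members were called for genotype on low protein diet (12.4% of all), 17 for genotype over both diets (5.02%) and 0 for diet over both genotypes (1.82%). With those 4 libraries out, 1 control-diet library of each genotype was left. The family total was then -0.92 for genotype on control diet, -0.15 for diet in wild type and 0.0603 for the interaction (log2). The called members spanning bases 2 to 31, bases 3 to 33 and bases 3 to 31 with G6C were then at 0.27, 1.94 and 0.63. The share with a missing start was then 0.69 points by diet and 0.12 by genotype, and that of 31 nt 3.10 by diet. The family total turned to -0.0026 for diet in wild type with TMM factors and to 0.0074 for diet over both genotypes with reads outside the 2 largest families. Without the third family the share with a missing start differed from the rest by -0.61 points.

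Leaving out single libraries moved the members called from 0 to 4 for genotype on low protein diet (0 to 1.01% of all sequences). For genotype over both diets they moved from 0 to 6 (0 to 0.572%). For diet they moved from 0 to 12 in wild type (0 to 19.4%), 0 to 1 in heterozygotes (0 to 2.39%) and 0 to 18 over both genotypes (0 to 26.9%). The family total moved from -0.46 to -0.20 for genotype on control diet, from -0.0600 to 0.15 for diet in wild type and from -0.62 to -0.37 for diet in heterozygotes. Shares, in points, moved from -2.84 to 0.90 for the missing start and from -0.43 to 1.21 for 30 nt or less by genotype, and from -1.40 to 0.59 for 31 nt and from -0.40 to 1.04 for the founder by diet. The family total for genotype on low protein diet stayed between -0.89 and -0.68 under all alternatives run. With the replicate block the members called were 6 for diet over both genotypes (12.0% of all sequences) and 0 elsewhere (0 to 2.69%). The family total for genotype on control diet was then -0.35, so the pairing changed no other call. The causes were not tested. Of all alternative counts of calls, 114 stayed within 1.5 times and 31 did not. Of the values, 442 kept their direction and side of the threshold, 67 lost a call (61 of them with a single library left out), 2 gained one and 22 turned. Members under 10 RPM, 17 of 43, had few reads.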
